A study of Mus musculus with 12 samples.

Results

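The proteasome genes of the mouse were followed across cells of the embryo at embryonic day 7.5 (E7.5) sorted by 2 surface proteins. The genes were taken by name: every gene whose name in the array files was Psma, Psmb, Psmc, Psmd, Psme, Psmf or Psmg with a number, together with Dscr2, the older name of Psmg1. This gave 44 genes of the 27548 gene names on the arrays. All 44 were among the 22719 genes bright enough to be tested, and they divide into 18 core genes, 20 cap genes, 5 activator or inhibitor genes and 1 assembly chaperone of the core. Psmg2, Psmg3 and Psmb11, which also stand on the arrays under older names, fall outside this rule and are given apart. The rule was set with earlier results of these data known, the rise of Psmg1 in Eng-Flk1+ cells among them.

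The proteasome is the protease of cytosol and nucleus that degrades proteins tagged with ubiquitin chains. Its core is a barrel of stacked rings in which the outer alpha subunits (Psma genes) gate the entrance and the inner beta subunits (Psmb genes) carry the cutting sites. The regulatory cap binds the ends of the barrel. Its base holds the ATPases that unfold and push in the substrate (Psmc genes), and its lid and base hold the ubiquitin receptor and the enzyme that removes ubiquitin (Psmd genes). Activators of the Psme family can bind in place of the cap, and after interferon some catalytic subunits are exchanged for immuno-subunits. Dedicated chaperones such as Psmg1 guide assembly and are not part of the finished particle.

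Cells came from a pool of about 300 whole embryos of strain CD-1 from 25 litters, stained for Endoglin (gene Eng), a TGF-beta co-receptor, and Flk1 (gene Kdr), a receptor for vascular endothelial growth factor. The 4 sorted fractions were Eng+Flk1+ cells, with both proteins, Eng-Flk1+ cells, with Flk1 alone, Eng+Flk1- cells, with Endoglin alone, and Eng-Flk1- cells, with neither. None carried a mutation or received a treatment per the labels, and each fraction was sorted 3 times at 3000 cells and hybridised to 3 arrays (n = 3). Each sample's cDNA went through PCR amplification (SuperAmp) before labelling. All arrays trace back to 1 pool, so the p-values take in how sorted samples vary, which may be technical, and say nothing of how embryos vary. In such bulk samples, fewer cells of a type and less RNA per cell cannot be told apart.

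Each gene was read by probes of 60 bases. Probes of Psme2, Psmb5, Psmg1 and Psmc5 are shown because the findings on these genes rest on single probes of their transcripts. The call of Psma2 also rests on 1 probe, at base 734, which is not printed. Positions are those of build mm8 in the array files, and each name gives the base of the transcript at which the probe starts.
Psme2 base 574: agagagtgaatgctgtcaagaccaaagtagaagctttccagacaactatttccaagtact
Psme2 base 779: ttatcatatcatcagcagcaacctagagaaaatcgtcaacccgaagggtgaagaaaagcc
Psmb5 base 607: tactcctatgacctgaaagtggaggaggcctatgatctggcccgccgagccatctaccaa
Psmg1 base 806: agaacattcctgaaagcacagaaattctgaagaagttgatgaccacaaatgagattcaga
Psmc5 base 236: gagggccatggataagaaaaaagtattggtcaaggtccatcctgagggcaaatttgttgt
Psmc5 base 1167: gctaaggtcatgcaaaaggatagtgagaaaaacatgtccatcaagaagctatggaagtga
The first Psme2 probe lies at chr14:54542161-54542358 on the minus strand and covers 198 bases of genome, so it joins exon sequence from both sides of an intron. The second Psme2 probe lies at chr14:54541569-54541628 on the minus strand, in 1 exon. Psme2 has a near-identical copy, Psme2b, and whether its RNA binds these probes was not tested. The Psmb5 probe lies in 1 exon at chr14:53568529-53568588 on the minus strand. The Psmg1 probe spans chr16:96084964-96087013 on the minus strand, 2050 bases that include an intron. The Psmc5 probes span chr11:106077339-106077538 and chr11:106078968-106079152 on the plus strand, 200 and 185 bases that each include an intron.

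A level below is the log2 of a probe's processed signal minus the 75th percentile of its array, so 0 is the level of the 75th percentile. The Eng-Flk1- arrays stood apart from the rest. Between 66.1% and 75.9% of probes were well above background on them, against 80.0% to 83.2% on the other 9 arrays. The Flk1 gene Kdr followed the sort: its levels were 1.53, 1.85 and 1.53 in Eng+Flk1+, 0.90, 0.47 and 1.96 in Eng-Flk1+, -3.27, -6.80 and -6.07 in Eng+Flk1- and -4.41, -7.28 and -6.90 in Eng-Flk1- cells. The Endoglin gene Eng was called in no comparison. It did not separate Eng+Flk1- from Eng-Flk1+ or Eng-Flk1- cells, nor Eng+Flk1+ from Eng-Flk1+ cells. Its levels were 2.76, 1.04 and 2.49 in Eng+Flk1+, 0.20, -0.36 and 1.62 in Eng-Flk1+, 0.75, 0.84 and -0.16 in Eng+Flk1- and 0.13, -1.47 and -0.12 in Eng-Flk1- cells. The Eng-Flk1- arrays all lay on 1 of 3 slides with 1 Eng-Flk1+ array, and they shared no slide with Eng+Flk1+ or Eng+Flk1- arrays, so there the slide and the fraction cannot be told apart.

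The proteasome genes were above background in every fraction, with 6 exceptions on single arrays. Of the 44 genes, 38 were well above background on all 12 arrays and the other 6 (Psma5, Psma8, Psmb4, Psmd13, Psmd10 and Psmd5) on 11, the missing one being an Eng-Flk1- array in each case. The median level of the 44 genes was 2.35, 1.74 and 2.56 on the Eng+Flk1+ arrays, 3.09, 2.32 and 2.49 on the Eng-Flk1+ arrays, 2.38, 2.44 and 2.56 on the Eng+Flk1- arrays and 1.77, 2.14 and 2.08 on the Eng-Flk1- arrays. The Eng-Flk1+ and Eng+Flk1- arrays were all above the Eng-Flk1- arrays in this median, whereas the Eng+Flk1+ arrays overlapped them. This separation depends on the scaling. The median over all genes tested was -1.23, -1.23 and -1.57 on the Eng-Flk1- arrays. It was -1.14, -1.02 and -1.07 on the Eng-Flk1+ arrays and -1.04, -1.04 and -1.09 on the Eng+Flk1- arrays. Relative to that median, the Eng-Flk1+ and Eng+Flk1- arrays overlapped the Eng-Flk1- arrays too.

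**Figure D1:**
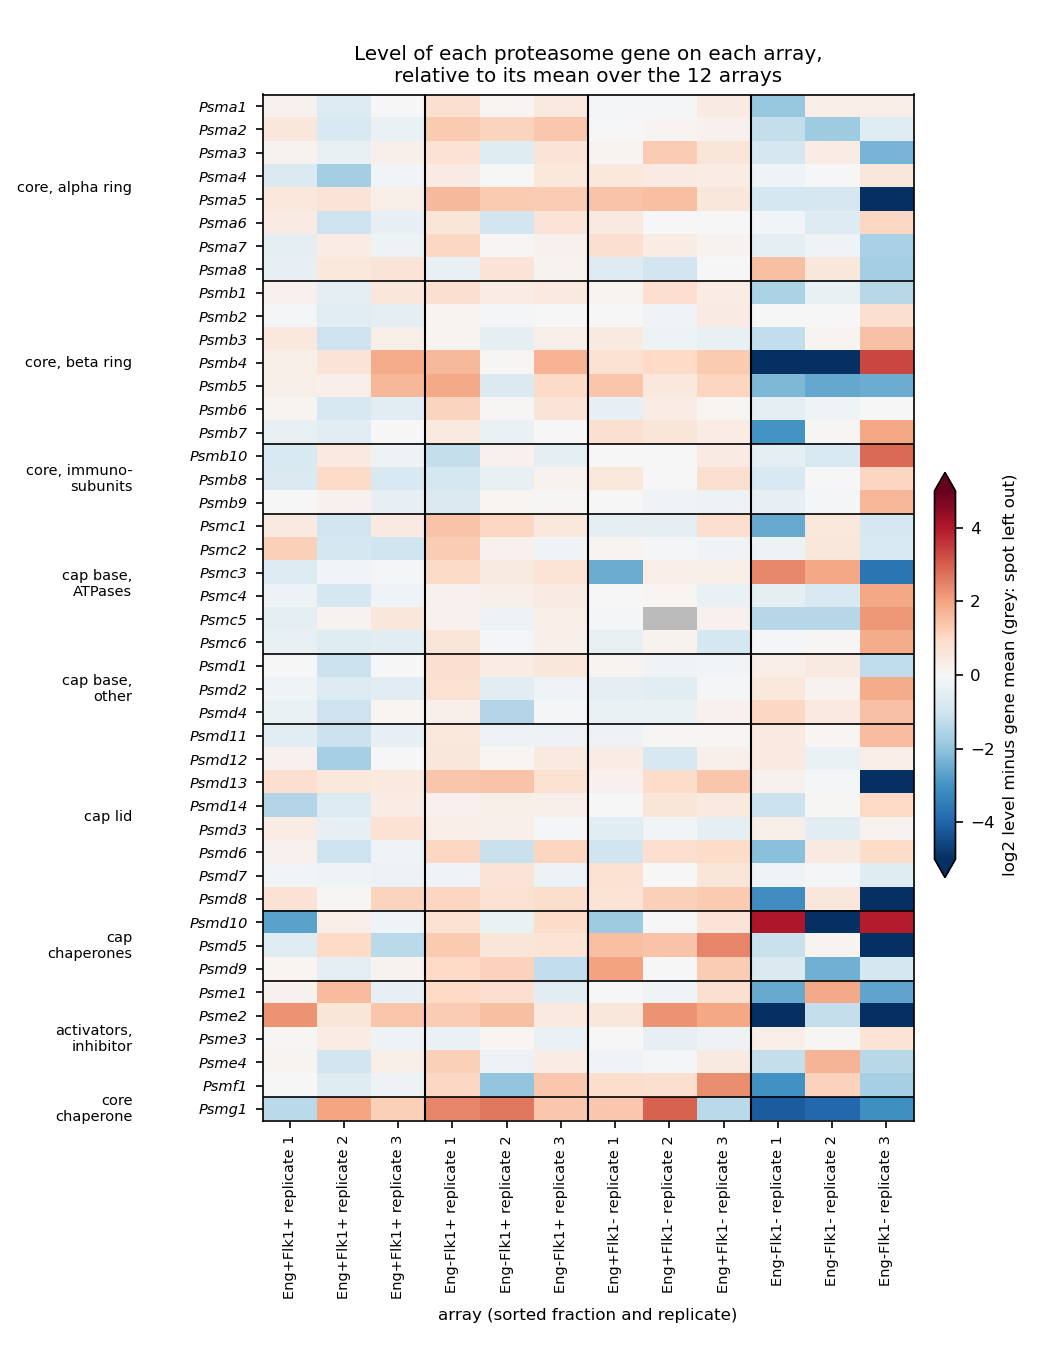
Level of each of the 44 proteasome genes on each of the 12 arrays, as log2 difference from the gene's own mean (colour), with genes grouped by role down the page and arrays grouped by sorted fraction across. The Eng-Flk1- arrays on the right hold the deepest colours in both directions, and Psmb5, Psme2 and Psmg1 are low on all 3 of them.

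Against Eng-Flk1- cells, 4 proteasome genes were higher and none lower in Eng-Flk1+ cells, while 2 were higher and none lower in Eng+Flk1- and in Eng+Flk1+ cells. A gene was called at an adjusted p under 0.05 (limma, Benjamini-Hochberg over all genes tested). The 4 genes were Psma2 and Psmb5 of the core, the activator Psme2 and the chaperone Psmg1, whose rise was known when the genes were chosen, and those called in Eng+Flk1- and Eng+Flk1+ cells were Psmb5 and Psme2 in both. Over all genes tested, 1.64% were called higher and 0.273% lower in Eng-Flk1+ cells, 1.23% and 0.224% in Eng+Flk1- cells, and 1.97% and 0.396% in Eng+Flk1+ cells. The 3 comparisons share the Eng-Flk1- arrays, so a gene low on those arrays counts in each.

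The counts rest on few arrays. In Eng-Flk1+ cells no proteasome gene was called without Eng-Flk1+ replicate 1 or 3, 1 (Psmb5) without Eng-Flk1+ replicate 2, 2 (Psma2 and Psmg1) without Eng-Flk1- replicate 1 or Eng+Flk1- replicate 2 or 3, and 6 without Eng-Flk1- replicate 2. There 3 were called without any 1 Eng+Flk1+ array or Eng+Flk1- replicate 1. Without Eng-Flk1- replicate 3 the count stayed at 4, but Psma5 and Psmb4 took the place of Psmb5 and Psme2, and 518 of all genes were called. In Eng+Flk1- cells none was called when Eng+Flk1- replicate 1, Eng+Flk1- replicate 2 or Eng-Flk1+ replicate 3 was left out, 1 without Eng-Flk1- replicate 1 (Psmb5) or Eng+Flk1- replicate 3 (Psmg1), 2 others (Psma5 and Psmb4) without Eng-Flk1- replicate 3, and 6 without Eng-Flk1- replicate 2, among them Psmd10 on the lower side. In Eng+Flk1+ cells none was called without Eng-Flk1- replicate 1 or Eng+Flk1+ replicate 1 or 3. There 1 was called without Eng-Flk1- replicate 3 (Psmb4) or without Eng+Flk1+ replicate 2, Eng-Flk1+ replicate 3 or Eng+Flk1- replicate 1 or 2 (Psme2), and 4, with Psmd10 lower, without Eng-Flk1- replicate 2. The counts over all genes moved too: without Eng-Flk1- replicate 2 they were 1022 for Eng+Flk1+, 994 for Eng-Flk1+ and 845 for Eng+Flk1- cells, where all arrays gave 537, 435 and 331, and in Eng-Flk1+ cells they were 170 without Eng-Flk1+ replicate 1 and 166 without replicate 3. With the slide as a block no proteasome gene was called in the 3 comparisons, where the count over all genes was 16 for Eng-Flk1+, 0 for Eng+Flk1- and 0 for Eng+Flk1+ cells.

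The median fold of the 44 genes was 0.51 on the log2 scale in Eng-Flk1+ cells, against -0.13 over all genes tested, a difference of 0.64. It was 0.36 against -0.06 over all genes in Eng+Flk1- cells, a difference of 0.42, and 0.06 against -0.06 in Eng+Flk1+ cells, a difference of 0.12. The signs of these medians depend on the scaling: with the array median subtracted in place of the 75th percentile they were -0.09, -0.21 and -0.54, and the medians over all genes moved to -0.74, -0.63 and -0.66. The differences from all genes were again 0.64, 0.42 and 0.12. Some arrays moved these differences: without Eng-Flk1- replicate 1 they were 0.55, 0.15 and -0.01, without Eng-Flk1- replicate 2 they were 1.06, 0.53 and 0.32, and without Eng-Flk1- replicate 3 they were 0.83, 0.68 and 0.23. In Eng-Flk1+ cells the difference was 0.41 without Eng-Flk1+ replicate 1, in Eng+Flk1- cells 0.24 without Eng+Flk1- replicate 3, and in Eng+Flk1+ cells 0.05, 0.43 and -0.03 without Eng+Flk1+ replicate 1, 2 and 3. Of the 44 genes, 33 lay above the median of all genes in Eng-Flk1+ cells, 29 in Eng+Flk1- cells and 23 in Eng+Flk1+ cells.

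Arrays of the paired fractions did not overlap for 12 genes on the higher and 1 on the lower side in Eng-Flk1+ against Eng-Flk1- cells, where 9.42% and 12.7% of all genes tested did not overlap. In Eng+Flk1- against Eng-Flk1- cells the counts were 11 higher and 4 lower, where all genes gave 8.94% and 10.1%. In Eng+Flk1+ against Eng-Flk1- cells they were 6 and 5, where all genes gave 8.88% and 9.19%. An unadjusted p under 0.05 in limma was reached by 27.3% of the proteasome genes in Eng-Flk1+ cells, 29.5% in Eng+Flk1- cells and 22.7% in Eng+Flk1+ cells, against 17.7%, 14.4% and 15.5% of all genes tested.

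Among the 8 alpha subunits, Psma2 was called. Psma2 forms part of the outer ring, and its level was 1.23, -0.11 and 0.30 in Eng+Flk1+, 1.94, 1.77 and 2.00 in Eng-Flk1+, 0.63, 0.79 and 0.86 in Eng+Flk1- and -0.55, -1.14 and 0.02 in Eng-Flk1- cells. The Eng-Flk1+ arrays were the highest and overlapped no other fraction, and Eng+Flk1- arrays also lay above all Eng-Flk1- arrays. The log2 fold was 2.46 ± 0.46 (SE, n = 3 each) in Eng-Flk1+ against Eng-Flk1- cells, a 5.50-fold rise with a limma adjusted p of 0.0234, while the folds of 1.31 in Eng+Flk1- cells (limma adjusted p = 0.222) and 1.03 in Eng+Flk1+ cells (limma adjusted p = 0.312) did not pass. Against Eng-Flk1+ cells, Psma2 had a log2 fold of -1.43 in Eng+Flk1+ cells (limma adjusted p = 0.711). Without Eng-Flk1+ replicate 1, 2 or 3 the call of Psma2 was lost at limma adjusted p of 0.090, 0.062 and 0.101. A further probe in a later stretch of the transcript was well above background on 1 array of 12, and the mean of both probes gave 0.36 in place of 2.46.

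Psma5, another alpha subunit, did not pass the test. Its level was 1.06, 1.16 and 0.81 in Eng+Flk1+, 2.15, 1.85 and 1.81 in Eng-Flk1+, 1.97, 2.05 and 1.11 in Eng+Flk1- and -0.34, -0.30 and -7.01 in Eng-Flk1- cells. The 3 Eng-Flk1- arrays were the lowest of the 12, but replicate 3 lay far below the other two. Its log2 folds against Eng-Flk1- cells of 3.56 ± 1.43 for Eng+Flk1+, 4.49 ± 1.43 for Eng-Flk1+ and 4.26 ± 1.43 for Eng+Flk1- cells (SE) had limma adjusted p of 0.266, 0.158 and 0.204. Without that array Psma5 was called in Eng-Flk1+ and in Eng+Flk1- cells. Over the 8 alpha genes the median log2 fold against Eng-Flk1- cells was 0.46 for Eng+Flk1+, 1.02 for Eng-Flk1+ and 0.86 for Eng+Flk1- cells, with Psma5 the highest in each when all arrays were used. Without Eng-Flk1- replicate 3, the array at -7.01, the folds of Psma5 were 1.33, 2.26 and 2.03, and in Eng-Flk1+ cells that of Psma2 was then 2.75. The lowest were Psma4 at -0.95, Psma6 at 0.00 and Psma8 at -0.66.

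Psmb5 carries the chymotrypsin-like activity of the core, the site that bortezomib binds. Its level was 1.67, 1.62 and 3.03 in Eng+Flk1+, 3.26, 0.67 and 2.35 in Eng-Flk1+, 2.77, 1.93 and 2.44 in Eng+Flk1- and -0.86, -1.16 and -1.10 in Eng-Flk1- cells. Every array of the first 3 fractions lay above every Eng-Flk1- array, and those 3 fractions overlapped each other. Psmb5 rose in all 3: by 3.14 ± 0.65 on the log2 scale in Eng+Flk1+ (8.83-fold), 3.13 ± 0.65 in Eng-Flk1+ (8.78-fold) and 3.42 ± 0.65 in Eng+Flk1- cells (10.7-fold; SE, n = 3), with limma adjusted p of 0.0343, 0.0392 and 0.0323. On the Eng-Flk1- arrays it was the most even of the 44 genes, with a mean of -1.04 ± 0.16 (SD). The call was near the threshold. With 1 array left out it held in 2 of 12 fits in Eng+Flk1+ cells (without Eng-Flk1+ replicate 1 or 2) and in 2 of 12 in Eng-Flk1+ cells (without Eng+Flk1+ replicate 3 or Eng-Flk1+ replicate 2). In Eng+Flk1- cells it held in 7 of 12 and was lost without any 1 Eng+Flk1- array, Eng-Flk1+ replicate 3 or Eng-Flk1- replicate 3. The limma adjusted p of the lost calls lay between 0.0502 and 0.151, and the log2 fold between 2.55 and 3.84 over these fits.

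Psmb1, a beta subunit without a cutting site, had levels of 3.92, 3.26 and 4.28 in Eng+Flk1+, 4.50, 4.10 and 4.22 in Eng-Flk1+, 3.87, 4.54 and 4.09 in Eng+Flk1- and 2.12, 3.36 and 2.33 in Eng-Flk1- cells. Eng-Flk1+ and Eng+Flk1- arrays lay above all Eng-Flk1- arrays, and Eng+Flk1+ arrays overlapped them at replicate 2. Its log2 folds of 1.22, 1.67 and 1.56 in Eng+Flk1+, Eng-Flk1+ and Eng+Flk1- cells did not pass (limma adjusted p = 0.236, 0.108 and 0.149). Without Eng-Flk1- replicate 2, Psmb1 was called in Eng-Flk1+ and in Eng+Flk1- cells. Among the 7 constitutive beta genes the highest fold was that of Psmb4 in Eng+Flk1+ and Eng-Flk1+ cells (4.04 and 4.24) and in Eng+Flk1- cells (4.10). Psmb4 had a limma adjusted p of 0.391, 0.321 and 0.407 there, and its Eng-Flk1- levels were -6.05, -3.58 and 4.81. Without Eng-Flk1- replicate 3 Psmb4 was called in all 3 comparisons. The lowest folds were those of Psmb2, -0.64 for Eng+Flk1+, -0.25 for Eng-Flk1+ and -0.19 for Eng+Flk1- cells.

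None of the 3 immuno-subunits was called. Psmb8, the exchange partner of Psmb5, had levels of -3.46, -1.81 and -3.53 in Eng+Flk1+, -3.62, -3.12 and -2.57 in Eng-Flk1+, -2.22, -2.74 and -1.97 in Eng+Flk1- and -3.52, -2.77 and -1.69 in Eng-Flk1- cells. All 4 fractions overlapped, and its log2 folds of -0.27, -0.44 and 0.35 had limma adjusted p of 0.871, 0.736 and 0.827. Psmb10 had levels of 0.29, 1.56 and 0.81 in Eng+Flk1+, -0.12, 1.29 and 0.58 in Eng-Flk1+, 1.03, 1.08 and 1.49 in Eng+Flk1- and 0.58, 0.29 and 3.90 in Eng-Flk1- cells. Its folds of -0.70, -1.01 and -0.39 did not pass (limma adjusted p = 0.737, 0.554 and 0.868), and without Eng-Flk1- replicate 3 the fold in Eng-Flk1+ cells was 0.15. Psmb9 had folds of -0.47, -0.59 and -0.55 (limma adjusted p = 0.72, 0.594 and 0.684).

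None of the 6 cap ATPases was called. Psmc1, the ATPase with the lowest p over the 4 fractions, had levels of 1.04, -0.36 and 1.05 in Eng+Flk1+, 2.03, 1.62 and 1.15 in Eng-Flk1+, 0.17, 0.10 and 1.45 in Eng+Flk1- and -1.91, 1.14 and -0.24 in Eng-Flk1- cells. Eng-Flk1+ arrays lay above all Eng-Flk1- arrays by a narrow margin, and its log2 folds were 0.91, 1.93 and 0.91 (limma adjusted p = 0.60, 0.23 and 0.616). Psmc6 had levels of 3.08, 2.84 and 2.89 in Eng+Flk1+, 4.06, 3.38 and 3.70 in Eng-Flk1+, 3.08, 3.61 and 2.56 in Eng+Flk1- and 3.35, 3.49 and 5.32 in Eng-Flk1- cells. Its Eng+Flk1+ arrays lay below all Eng-Flk1- arrays, with log2 folds of -1.12, -0.34 and -0.97 (limma adjusted p = 0.367, 0.779 and 0.46). The other ATPases had folds between -0.85 for Psmc3 in Eng+Flk1- cells and 0.58 for Psmc2 in Eng-Flk1+ cells.

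Of the other cap base genes, Psmd2 and Psmd4 had folds below 0, and none was called. Psmd4 is a ubiquitin receptor of the cap, with levels of 3.38, 2.71 and 3.82 in Eng+Flk1+, 4.0, 2.27 and 3.67 in Eng-Flk1+, 3.38, 3.40 and 3.94 in Eng+Flk1- and 4.77, 4.23 and 5.20 in Eng-Flk1- cells. Every array of the first 3 fractions lay below every Eng-Flk1- array, and yet the log2 folds of -1.44, -1.42 and -1.16 did not pass (SE 0.54; limma adjusted p = 0.234, 0.218 and 0.36). Psmd2, a scaffold of the base, had levels of 4.35, 3.85 and 4.0 in Eng+Flk1+, 5.31, 4.04 and 4.35 in Eng-Flk1+, 4.07, 3.97 and 4.45 in Eng+Flk1- and 5.06, 4.74 and 6.41 in Eng-Flk1- cells. Its Eng+Flk1+ and Eng+Flk1- arrays lay below all Eng-Flk1- arrays, with log2 folds of -1.33, -0.84 and -1.24 (limma adjusted p = 0.256, 0.419 and 0.314). Psmd1, the other scaffold, had folds of -0.19, 0.75 and 0.13.

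The 8 lid genes, which carry and position the deubiquitinase, were not called either. Psmd8 had levels of 1.64, 0.99 and 2.06 in Eng+Flk1+, 2.00, 1.70 and 1.81 in Eng-Flk1+, 1.60, 2.13 and 2.25 in Eng+Flk1- and -2.18, 1.50 and -4.30 in Eng-Flk1- cells. On Eng-Flk1- replicate 2 it lay within the range of the Eng+Flk1+ arrays and below all Eng-Flk1+ and Eng+Flk1- arrays, and the log2 folds of 3.22, 3.50 and 3.66 (SE 1.12) had limma adjusted p of 0.197, 0.159 and 0.165. Without that array Psmd8 was called in all 3 comparisons. Psmd11, with levels of 4.02, 3.49 and 4.12 in Eng+Flk1+, 5.09, 4.28 and 4.29 in Eng-Flk1+, 4.29, 4.60 and 4.62 in Eng+Flk1- and 5.04, 4.65 and 6.10 in Eng-Flk1- cells, ran the other way. Its log2 folds were -1.39, -0.71 and -0.76 (limma adjusted p = 0.189, 0.446 and 0.496), the lowest of the lid in each comparison. Psmd13 had folds of 3.28, 3.84 and 3.48 that did not pass (limma adjusted p = 0.395, 0.279 and 0.39), with Eng-Flk1- levels of 1.92, 1.59 and -6.36.

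Of the 3 chaperones that assemble the cap, Psmd5 and Psmd9 had the highest folds. Psmd5 had levels of -0.38, 1.24 and -1.10 in Eng+Flk1+, 1.55, 0.85 and 0.90 in Eng-Flk1+, 1.75, 1.64 and 2.68 in Eng+Flk1- and -0.87, 0.38 and -5.89 in Eng-Flk1- cells. Eng-Flk1+ and Eng+Flk1- arrays lay above all Eng-Flk1- arrays, and Eng+Flk1+ arrays overlapped them, with log2 folds of 2.04, 3.22 and 4.15 (limma adjusted p = 0.492, 0.244 and 0.182). These folds were 0.16, 1.34 and 2.27 without Eng-Flk1- replicate 3, and without Eng-Flk1- replicate 2 Psmd5 was called in Eng+Flk1- cells at a fold of 5.40 (limma adjusted p = 0.0471). Psmd9 had levels of 0.61, 0.03 and 0.67 in Eng+Flk1+, 1.49, 1.67 and -0.73 in Eng-Flk1+, 2.52, 0.49 and 1.79 in Eng+Flk1- and -0.20, -1.88 and -0.37 in Eng-Flk1- cells. Its log2 folds of 1.25, 1.63 and 2.42 did not pass (limma adjusted p = 0.468, 0.297 and 0.181). Psmd10 had folds of -1.65, -0.34 and -1.15 with an SE of 2.14, and its Eng-Flk1- levels of 3.91, -5.78 and 3.80 were split between 2 high arrays and 1 low array.

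The activator gene Psme2 had the highest fold of the 44 genes in Eng+Flk1+ and in Eng+Flk1- cells. Psme2 encodes the beta subunit of the PA28 activator, which forms a ring with the product of Psme1. Its level was 2.91, 1.26 and 2.03 in Eng+Flk1+, 1.93, 2.17 and 1.15 in Eng-Flk1+, 1.22, 2.89 and 2.57 in Eng+Flk1- and -4.94, -0.55 and -4.84 in Eng-Flk1- cells. Every array of the first 3 fractions lay above every Eng-Flk1- array, of which replicate 2 came closest. Psme2 rose by 5.51 ± 1.06 on the log2 scale in Eng+Flk1+ (45.6-fold), 5.19 ± 1.06 in Eng-Flk1+ (36.6-fold) and 5.67 ± 1.06 in Eng+Flk1- cells (50.9-fold; SE, n = 3), with limma adjusted p of 0.0235, 0.035 and 0.0293.

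With 1 array left out, the call of Psme2 held in 8 of 12 fits in Eng+Flk1+ cells and was lost without replicate 1 or 3 of Eng+Flk1+ and without replicate 1 or 3 of Eng-Flk1- cells. It held in 6 of 12 in Eng+Flk1- cells and was lost without any 1 Eng+Flk1- array, Eng-Flk1+ replicate 3 or Eng-Flk1- replicate 1 or 3. In Eng-Flk1+ cells it held in 4 of 12 (without Eng-Flk1- replicate 2, Eng+Flk1- replicate 1, Eng+Flk1+ replicate 1 or Eng+Flk1+ replicate 2). The limma adjusted p of the lost calls lay between 0.0516 and 0.123, and the log2 fold over these fits between 4.44 and 7.12. The later probe of Psme2, at base 779, gave a different size. Its levels were 1.09, -1.63 and -1.66 in Eng+Flk1+, 0.78, 1.12 and 1.03 in Eng-Flk1+, 0.73, 1.17 and 1.72 in Eng+Flk1- and -1.50, -1.95 and -1.99 in Eng-Flk1- cells. With each probe tested on its own, the log2 folds at base 779 were 1.08 for Eng+Flk1+, 2.79 for Eng-Flk1+ and 3.02 for Eng+Flk1- cells (limma adjusted p = 0.492, 0.0667 and 0.0568), and here Eng+Flk1+ replicates 2 and 3 lay near the Eng-Flk1- arrays.

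The other activator genes were not called. Psme1, the partner of Psme2 in the ring, had log2 folds of 1.55 for Eng+Flk1+, 1.51 for Eng-Flk1+ and 1.28 for Eng+Flk1- cells (limma adjusted p = 0.528, 0.486 and 0.623). Without Eng-Flk1- replicate 2 it was called in Eng+Flk1+ and in Eng-Flk1+ cells. Psme3, which forms a nuclear activator of its own, had folds of -0.29, -0.54 and -0.59, and Psme4 had folds of 0.11, 0.73 and 0.36. The inhibitor gene Psmf1 had levels of -0.97, -1.55 and -1.19 in Eng+Flk1+, 0.10, -2.94 and 0.39 in Eng-Flk1+, -0.09, -0.16 and 1.38 in Eng+Flk1- and -3.98, 0.21 and -2.63 in Eng-Flk1- cells. The Eng+Flk1+, Eng-Flk1+ and Eng+Flk1- arrays each overlapped the Eng-Flk1- arrays for Psmf1, while all Eng+Flk1+ arrays lay below all Eng+Flk1- arrays. Its folds of 0.90, 1.32 and 2.51 did not pass (limma adjusted p = 0.739, 0.548 and 0.333).

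Psmg1 pairs with Psmg2 to build the alpha ring, and it was taken in by its older name with its rise in Eng-Flk1+ cells already known, so its call there is no independent evidence. Its level was -2.69, 0.63 and -0.14 in Eng+Flk1+, 1.13, 1.31 and 0.01 in Eng-Flk1+, 0.00, 1.60 and -2.67 in Eng+Flk1- and -5.51, -5.26 and -4.38 in Eng-Flk1- cells. The Eng-Flk1- arrays were the 3 lowest, and 1 array each of Eng+Flk1+ and Eng+Flk1- cells lay well below the other two of its fraction. Psmg1 was higher by 5.87 ± 1.09 on the log2 scale in Eng-Flk1+ cells (58.4-fold; SE, n = 3; limma adjusted p = 0.0234). The log2 folds of 4.32 in Eng+Flk1+ cells (limma adjusted p = 0.0754) and 4.70 in Eng+Flk1- cells (limma adjusted p = 0.0695) did not pass. Without Eng-Flk1+ replicate 1, 2 or 3 the call was lost at limma adjusted p of 0.0912, 0.0801 and 0.0654, and without Eng+Flk1- replicate 3 Psmg1 was called in Eng+Flk1- and in Eng+Flk1+ cells too.

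**Figure D2:**
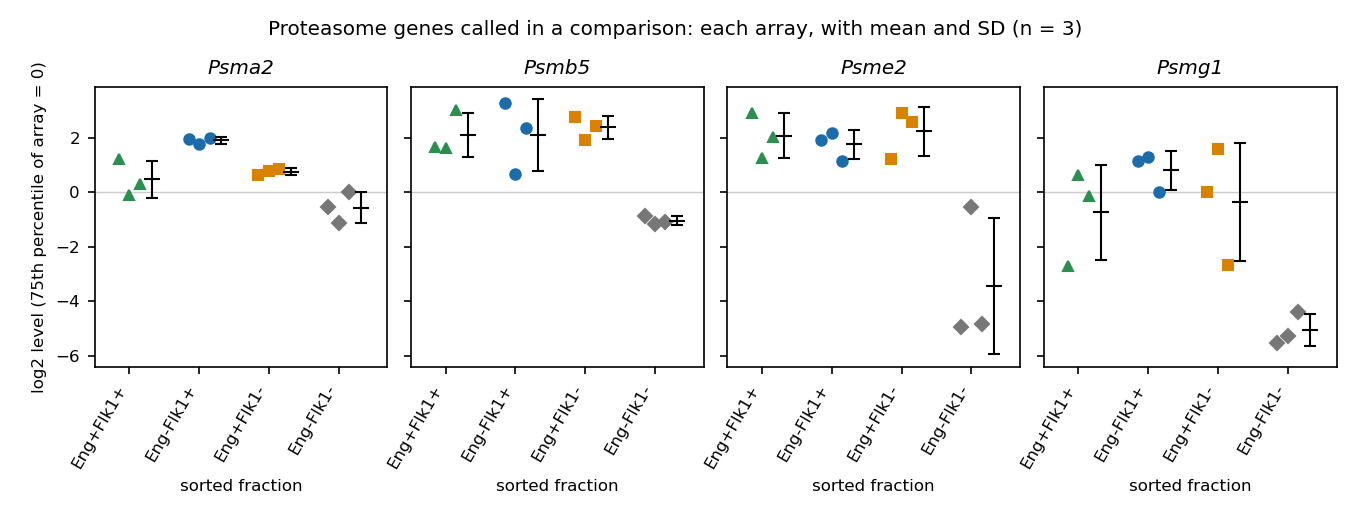
Log2 level (75th percentile of the array at 0) of the 4 proteasome genes called in at least 1 comparison, by sorted fraction, with a symbol for each array and the mean and SD of 3 arrays beside them. Psmb5 in Eng-Flk1- cells lies near -1.04 on all 3 arrays, whereas Psme2 there lies at -4.94, -0.55 and -4.84, and for Psma2 the Eng-Flk1+ arrays stand above the rest.

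No proteasome gene was called in Eng+Flk1+ against Eng-Flk1+ or against Eng+Flk1- cells; Eng-Flk1+ and Eng+Flk1- cells, which differ in both markers, were not tested against each other. In Eng+Flk1+ against Eng-Flk1+ cells 3 of 44 had an unadjusted p under 0.05 in limma, and in Eng+Flk1+ against Eng+Flk1- cells 1 of 44 did. Over all genes tested 0.0264% were called in Eng+Flk1+ against Eng-Flk1+ cells and 0.295% in Eng+Flk1+ against Eng+Flk1- cells, while an unadjusted p under 0.05 was reached by 4.78% and 6.60%. Most of the proteasome folds pointed down: 10 of 44 were above 0 in Eng+Flk1+ against Eng-Flk1+ cells, where 55.6% of all genes were, and 8 of 44 in Eng+Flk1+ against Eng+Flk1- cells, where 49.1% were. The median log2 fold was -0.47 against 0.10 over all genes in Eng+Flk1+ against Eng-Flk1+ cells, and -0.33 against -0.01 in Eng+Flk1+ against Eng+Flk1- cells. These 2 comparisons share the Eng+Flk1+ arrays. Both medians stayed below 0 with each array left out, but without Eng+Flk1+ replicate 2 they were -0.32 and -0.15 (0.00 and -0.10 over all genes). The median against Eng-Flk1+ cells was -0.25 without Eng-Flk1+ replicate 1 and -0.75 without Eng-Flk1+ replicate 2, against 0.04 and 0.15 over all genes.

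The groups of arrays did not overlap, with Eng+Flk1+ lower, for 10 genes against Eng-Flk1+ and for 6 against Eng+Flk1- cells, where 6.37% and 7.35% of all genes did so. None of the 44 was higher in Eng+Flk1+ without overlap in these comparisons, where 7.45% and 7.83% of all genes were. Psmg1 had the lowest fold against Eng-Flk1+ cells, -1.55, and Psmd5 the lowest against Eng+Flk1- cells, -2.10 (limma adjusted p = 0.999 and 0.992). The highest were 0.32 for Psme2 and 0.80 for Psma8. By role, the median log2 fold in Eng+Flk1+ against Eng-Flk1+ cells was -0.38 for the core, -0.68 for the cap and 0.04 for the activators and the inhibitor. Against Eng+Flk1- cells it was -0.38, -0.35 and -0.16. Within slide 2, which held 2 arrays each of Eng+Flk1+ and Eng-Flk1+ cells, the median of the 44 genes was -0.37 against 0.09 over all genes. Within slide 3, which held 1 Eng+Flk1+ array and 3 Eng+Flk1- arrays, it was -0.20 against -0.12.

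**Figure D3:**
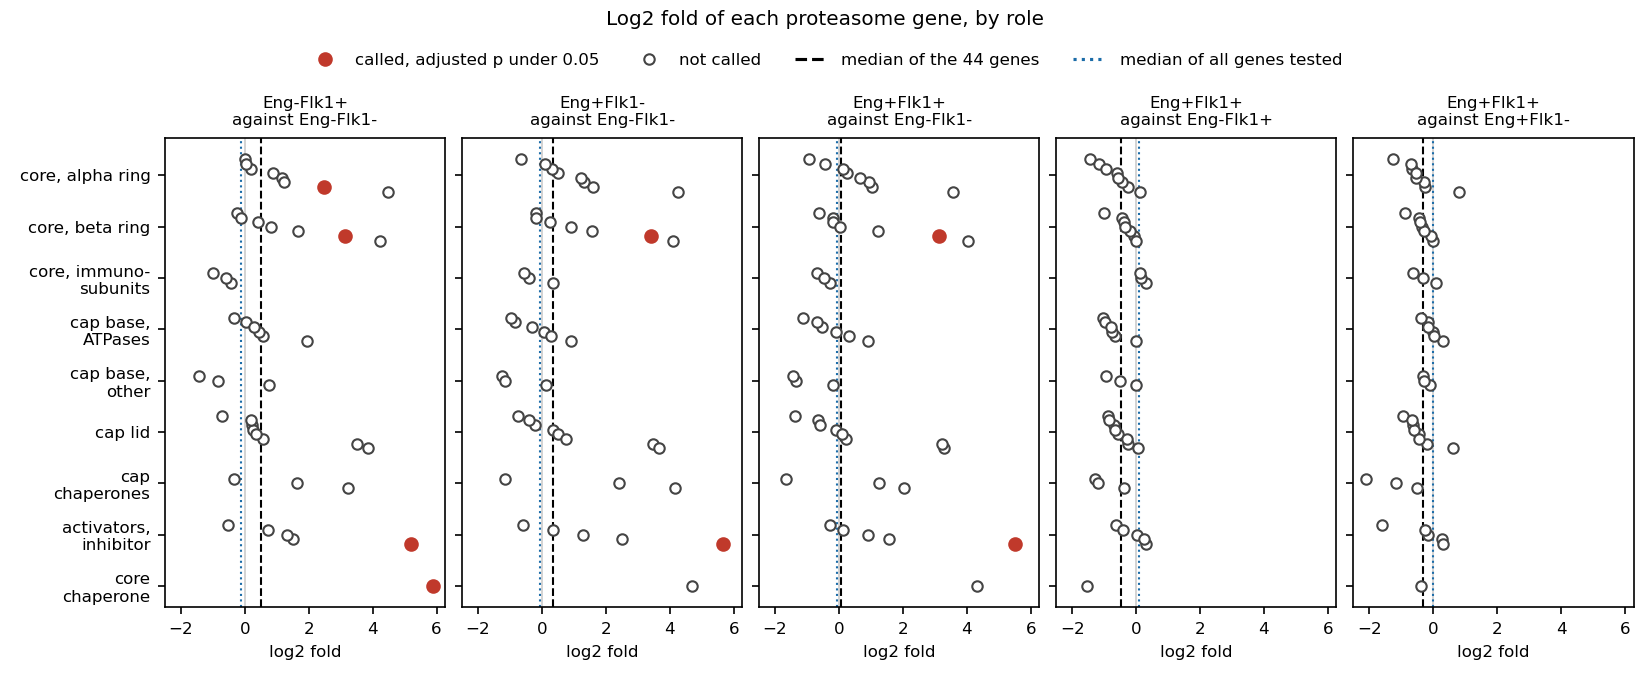
Log2 fold of each of the 44 genes in the 5 comparisons, by role down the page; filled red points were called at an adjusted p under 0.05, the dashed line is the median of the 44 genes and the dotted line the median of all genes tested. The dashed line lies 0.64 to the right of the dotted line in Eng-Flk1+ against Eng-Flk1- cells, where with the array median subtracted it is below 0 but still 0.64 to the right, and 0.57 to the left in Eng+Flk1+ against Eng-Flk1+ cells.

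The interaction compares the log2 fold with Endoglin among Flk1-positive cells with that among Flk1-negative cells, and it was called for none of the 44 genes and for 0.273% of all genes tested. An unadjusted p under 0.05 in limma was reached by 11 of the 44, or 25%, against 10.5% of all genes. The median interaction of the 44 was -1.09 on the log2 scale, against 0.14 over all genes. With the array median subtracted it was -0.51 against 0.72 over all genes, so that the difference was -1.23 in both. Psmg1 had the lowest value, -6.24 (limma adjusted p = 0.157), then Psme2 at -5.35, Psmd5 at -5.33 and Psma5 at -5.19 (limma adjusted p = 0.205, 0.347 and 0.399). The highest was 1.15 for Psmd4. With 1 array left out, Psmg1 ran from -7.4 to -5.26 and Psme2 from -6.8 to -4.6. Psmd5 then ran from -6.58 to -3.45 and Psma5 from -6.32 to -2.96. The interaction also uses the Eng-Flk1- arrays, so a gene low on them counts here as in the folds against them. Without Eng-Flk1- replicate 2, Psmd8 and Psme2 were called, and without Eng-Flk1- replicate 3 Psmb4 was. The counts over all genes rose in these fits as well, to 310 and 128, where all arrays gave 62.

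The proteasome genes, like all genes tested, were less even among the Eng-Flk1- arrays than elsewhere. The median SD over 3 arrays was 0.566 for Eng+Flk1+, 0.471 for Eng-Flk1+, 0.347 for Eng+Flk1- and 1.10 for Eng-Flk1- cells, and over all genes tested it was 0.666, 0.576, 0.564 and 1.01. The range over the 3 arrays passed 4 log2 units for none of the 44 genes in Eng+Flk1+ or Eng-Flk1+ cells, for 1 in Eng+Flk1- cells (Psmg1, 4.27) and for 11 in Eng-Flk1- cells. The 11 were Psma5, Psmb4, Psmb7, Psmc3, Psmd13, Psmd8, Psmd10, Psmd5, Psme1, Psme2 and Psmf1, of which Psmb4 had the widest range, 10.86, and Psmd10 the next, 9.69. How many of all genes passed that range was not counted. As a description across the 44 genes, which are not replicates, 2 arrays of a fraction correlated at r of 0.841 to 0.914 in Eng+Flk1+, 0.858 to 0.951 in Eng-Flk1+, 0.888 to 0.906 in Eng+Flk1- and 0.483 to 0.697 in Eng-Flk1- cells. Across all genes tested, r was 0.812 to 0.855 in Eng+Flk1+ and 0.852 to 0.912 in Eng-Flk1+ cells. It was 0.853 to 0.873 in Eng+Flk1- and 0.674 to 0.72 in Eng-Flk1- cells. limma's array weights ran from 0.253 to 0.544 on the Eng-Flk1- arrays and from 0.755 to 2.51 on the others, and with them no proteasome gene was called against Eng-Flk1- cells, where the counts over all genes were 172 for Eng+Flk1+, 162 for Eng-Flk1+ and 103 for Eng+Flk1- cells. The fit used 1 spread per gene for all fractions.

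Pairs of probes on 1 transcript showed the same unevenness. For each of 15 such pairs the log2 difference between the probes was taken on every array, except for Psmc5 on Eng+Flk1- replicate 2, so that 14 pairs gave a range in Eng+Flk1- cells; probes differ in brightness, so only the range of this difference over the arrays of a fraction is read. That range over 3 arrays had a median of 1.88 log2 units for Eng+Flk1+, 0.995 for Eng-Flk1+, 0.876 for Eng+Flk1- and 3.44 for Eng-Flk1- cells, and over the 6090 to 6137 pairs of all genes with a value on all 3 arrays it was 1.95, 1.63, 1.80 and 3.57. For Psme2 the difference, base 779 minus base 574, was 3.45, -1.40 and 2.85 on the Eng-Flk1- arrays. For Psmd14, the deubiquitinase of the lid, the difference between bases 1138 and 458 was -4.07, -0.61 and -7.36 there.

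**Figure D4:**
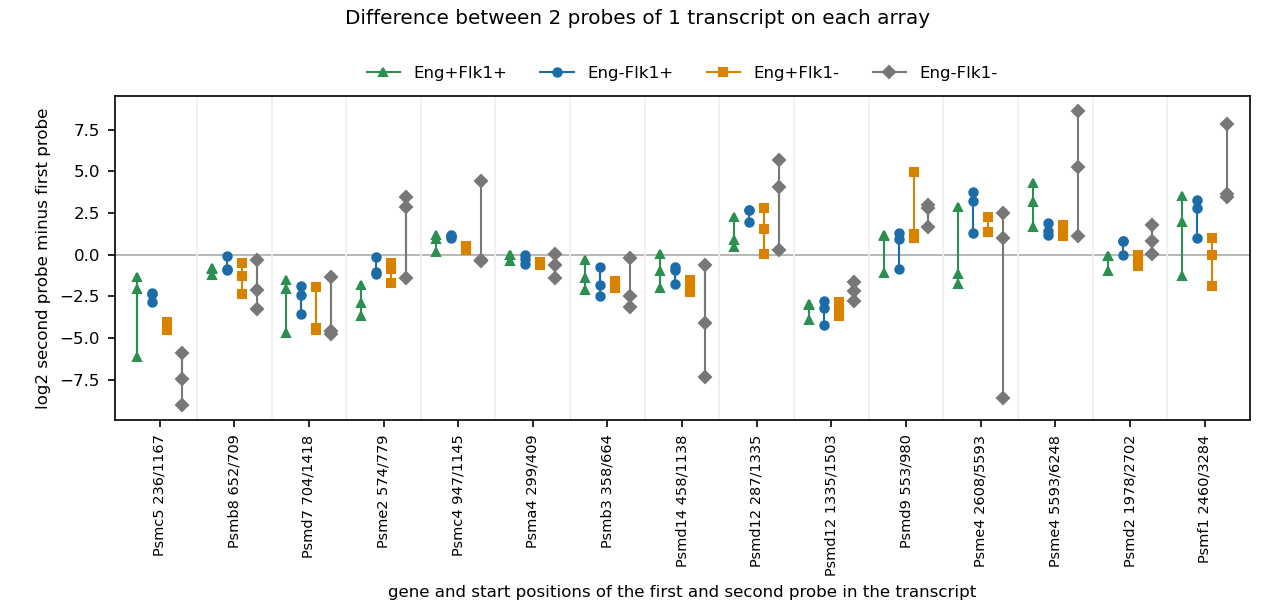
Log2 difference between the second and the first probe of 1 transcript for 15 pairs of probes in the proteasome genes, a symbol for each array, joined by a line within each sorted fraction. The grey Eng-Flk1- lines are the longest for most pairs, with a median length of 3.44 log2 units, against 1.88 for Eng+Flk1+, 0.995 for Eng-Flk1+ and 0.876 for Eng+Flk1- cells.

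With each probe as its own feature, 65 proteasome probes were among 33136 tested. In Eng-Flk1+ against Eng-Flk1- cells 5 were called higher, in a table where 2.34% of all probes were: the probes of Psma2, Psmb5 and Psmg1, the earlier probe of Psme2 and the later probe of the ATPase Psmc5. The Psmc5 probe at base 1167 had levels of 1.44, -2.70 and 1.72 in Eng+Flk1+, 0.58, 0.58 and 1.27 in Eng-Flk1+, -1.36, 1.02 and -0.62 in Eng+Flk1- and -5.61, -4.09 and -3.64 in Eng-Flk1- cells. Its log2 fold in Eng-Flk1+ cells was 5.26 (limma adjusted p = 0.0344), while the brighter Psmc5 probe at base 236 gave 0.30 (limma adjusted p = 0.885). The 2 probes of Psmc5 thus differed in call on the same RNA. In Eng+Flk1- and in Eng+Flk1+ cells the probes called were those of Psmb5 and Psme2, where 1.77% and 2.60% of all probes were called higher.

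Genes that work with the proteasome but lie outside the name rule were counted in lists. Of 10 other proteasome genes, none was called in any comparison. Their median log2 fold was 0.39 for Eng+Flk1+, 1.12 for Eng-Flk1+ and 1.15 for Eng+Flk1- against Eng-Flk1- cells, and -0.72 in Eng+Flk1+ against Eng-Flk1+ cells, where 0 of 10 were above 0. Pomp, the maturation factor of the core, had levels of 4.44, 3.74 and 4.04 in Eng+Flk1+, 4.59, 3.93 and 4.32 in Eng-Flk1+, 4.18, 4.15 and 4.36 in Eng+Flk1- and 2.41, 3.82 and -0.18 in Eng-Flk1- cells, and its folds of 2.06, 2.27 and 2.21 did not pass (limma adjusted p = 0.257, 0.20 and 0.246). Psmg2, the partner of Psmg1, stands in the array files under an older name and had folds of 1.27, 2.88 and 2.64 in Eng+Flk1+, Eng-Flk1+ and Eng+Flk1- cells (limma adjusted p = 0.719, 0.332 and 0.448). Psmg3 and Psmb11, also under older names, were not called.

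The lists upstream of the proteasome held no called gene either. In 14 ubiquitin and shuttle genes the median log2 fold against Eng-Flk1- cells was -0.22 for Eng+Flk1+, 0.15 for Eng-Flk1+ and -0.07 for Eng+Flk1- cells. In 11 regulators of proteasome genes it was -0.70, -0.58 and -0.36, and 3, 3 and 5 of the 11 had folds above 0. The lowest regulator folds were -2.37 for Nfyb, -2.37 for Mafg and -2.04 for Nfyb. The highest were 1.61 for Bach1, 1.75 for Nfya and 0.44 for Nfya. Nfe2l1, the factor that drives proteasome genes when the proteasome is inhibited, had folds of 1.19, 0.95 and 0.40 (limma adjusted p = 0.43, 0.475 and 0.817). In 12 interferon and antigen presentation genes, which include inducers and partners of the immuno-subunits, the medians were -0.47, -0.65 and -0.09. In 13 genes often used for scaling they were -0.67, -0.38 and -0.48.

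Promoters from 250 bases before to 50 after the start were read for the 37 of 44 genes matched in RefSeq (GRCm38.p6). The motif TGACNNNGC, the site of Nfe2l1, was searched on both strands and lay in 6 of the 37, or 16.2%, against 14.0% of 27025 genes and 12.4% of 32851 promoters. CCAAT, the site of NF-Y, lay in 13 of 37, or 35.1%, against 41.1% of genes and 37.4% of promoters. The promoter printed here holds no CCAAT, so no overlap of the motifs arises in it. Of the 4 called genes, Psmb5 alone had TGACNNNGC and Psma2 alone had CCAAT. The Psmb5 promoter is shown because Psmb5 was called in all 3 comparisons and holds the motif, in capitals, at base -47 from the start (chr14:54617946-54618245, minus strand).
Psmb5 promoter: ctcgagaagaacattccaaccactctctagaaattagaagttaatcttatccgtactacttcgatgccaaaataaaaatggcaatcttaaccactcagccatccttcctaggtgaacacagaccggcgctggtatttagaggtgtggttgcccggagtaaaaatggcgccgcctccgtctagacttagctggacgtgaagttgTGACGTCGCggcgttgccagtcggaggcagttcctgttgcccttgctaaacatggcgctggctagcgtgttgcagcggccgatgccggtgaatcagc
Among the other genes given above by array, Psmd9 held TGACCCCGC at base -31 and Psmc6 held GCTAAGTCA, a match on the other strand, at base -227. The median log2 fold in Eng-Flk1+ against Eng-Flk1- cells was 0.78 over the 6 genes with TGACNNNGC and 0.58 over the 31 without it, in Eng+Flk1- cells 0.30 and 0.36, and in Eng+Flk1+ cells -0.03 and -0.08. A match is a description of letters and not a site shown to be bound.

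Markers of other cell types moved between the fractions that differ in Psma2, Psmb5, Psme2 and Psmg1. Of 8 visceral endoderm markers 7 were tested (Afp was not), and 4 were lower in Eng+Flk1+ cells, 3 in Eng-Flk1+ cells and 4 in Eng+Flk1- cells than in Eng-Flk1- cells. The median level of the 7 lay between -2.58 and -2.02 in Eng+Flk1+, -2.85 and -1.91 in Eng-Flk1+, -2.54 and -1.59 in Eng+Flk1- and 0.68 and 1.36 in Eng-Flk1- cells. Of 5 epiblast markers 2 were lower in Eng+Flk1+ cells, 1 in Eng-Flk1+ and 0 in Eng+Flk1- cells. Of 4 markers of extraembryonic mesoderm 1 was higher in Eng+Flk1+ cells, 2 in Eng-Flk1+ cells and 2 in Eng+Flk1- cells, and of 7 endothelial markers 4, 1 and 0 were. The 7 endothelial markers include Kdr, the gene of Flk1, on which the cells were sorted. Its rise in Flk1-positive cells is therefore no independent evidence of a cell type. Of 6 trophoblast markers 3 were higher in Eng+Flk1- cells and 1 was lower in Eng+Flk1+ cells, and of 6 erythroid markers 1 was lower in Eng+Flk1+ and 1 in Eng-Flk1+ cells. Of 5 markers of white blood cells 1 (Laptm5) was higher in Eng+Flk1+ cells, and of 5 decidua markers 4 were tested and none was called. The part of these cell types in the proteasome values was not tested.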

How the data were processed

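Per the labels, amplified cDNA of each sorted sample was labelled with Cy3 and hybridised to its own 1-colour Agilent array. Per the file headers, the arrays were read with Feature Extraction 10.5.1.1, and the deposited processed signal is an intensity per spot, background-subtracted and spatially detrended, not scaled between arrays. The authors' table holds the same intensity after division by each array's median; the design text names GeneSpring GX, with settings not given here.

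From the deposited intensities, 1639 control spots per array and spots marked as outliers were left out, intensities were put on the log2 scale relative to their array's 75th percentile, and spots of a probe were averaged. No spot was saturated. A gene took its probe with the highest mean over 12 arrays, and names were updated from a RefSeq gene table (by accession for 24375 of 41174 probes). Of the 44 genes, 18 had several probes. A gene was tested where its probe was well above background on each of the 3 arrays of some fraction. In 165 of them 184 values were missing after the outlier marks, among them Psmc5 on Eng+Flk1- replicate 2, which its fit left out.

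A single limma model (limma 3.58.1 and the package data.table, version 1.17.8, in R 4.3.3) held the 4 fractions over 12 arrays, and its code was tested on simulated data. With log2 folds of 2, 4 and 6 added to 67, 67 and 66 genes on simulated Eng-Flk1+ arrays, 13.4%, 53.7% and 81.8% of these were called. In the same run 11 genes without an added fold were called too, so a called gene may be a false call. The simulation gave each gene the same spread in all fractions, which the real arrays did not show. A gene that was not called may therefore still differ. The number of arrays limits the precision. Errors of folds are SE from the model, errors of levels SD. The 5 comparisons and the interaction were adjusted by Benjamini-Hochberg over all genes. Values on every array are given for genes called in any comparison and for the 2 genes of each role with the lowest p over the 4 fractions; values of other genes were chosen after they were seen.

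The genes, roles and lists were chosen with earlier results of these data known, among them the rise of Psmg1 in Eng-Flk1+ cells, which is no independent evidence. Alternatives covered scaling, background correction, the authors' table, filters, outlier marks, probe choice, slide, replicate number, array weights and each array left out. The test of each probe and the fit without the Eng-Flk1- arrays were added after the data were seen.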

Additional observations from a re-analysis of the deposited data

How the results depend on the processing

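The folds of Psma2 and Psmg1 in Eng-Flk1+ cells and of Psmb5 and Psme2 in Eng+Flk1+, Eng-Flk1+ and Eng+Flk1- cells kept their sign in every alternative, and the calls did not. The counts of called genes in Eng+Flk1+, Eng-Flk1+ and Eng+Flk1- against Eng-Flk1- cells were 2, 4 and 2 as reported. They were 0, 0 and 0 with array weights and with the slide as a block, 1, 1 and 1 with the authors' table and with the array median subtracted, and 0, 1 and 1 from the 6 arrays compared. With the slide as a random block (correlation -0.194) they were 7 in Eng+Flk1+ and 10 in Eng+Flk1- cells, where 2469 and 2832 of all genes were called, and within slide 1 the count in Eng-Flk1+ cells was 0. With 1 array left out they ran from 0 to 4, 0 to 6 and 0 to 6, and the interaction from 0 to 2. In Eng+Flk1+ against Eng-Flk1+ and against Eng+Flk1- cells they were 0 in every alternative. The median fold of the 44 genes in Eng+Flk1+ cells, 0.06 as reported, was -0.54 with the authors' table and the array median, 0.52 with normexp and 0.55 with quantile normalization; in Eng+Flk1- cells it was -0.21 with the authors' table and the array median and 0.86 with quantile normalization, and in Eng-Flk1+ cells -0.09 with the authors' table and the array median. The difference from all genes ran over the alternatives from -0.08 to 0.65 in Eng+Flk1+, 0.41 to 1.16 in Eng-Flk1+ and 0.15 to 0.97 in Eng+Flk1- against Eng-Flk1- cells, from -0.90 to -0.29 in Eng+Flk1+ against Eng-Flk1+, from -0.53 to -0.05 against Eng+Flk1- cells, and from -1.61 to -0.91 for the interaction. The mean of all probes turned the folds of Psma2 to -0.01 in Eng+Flk1+ and -0.09 in Eng+Flk1- cells and of Psmf1 to -0.66 in Eng-Flk1+ cells, and with 1 array left out the fold of Psmb10 in Eng-Flk1+ cells ran from -1.66 to 0.15, the only one above 0 being without Eng-Flk1- replicate 3; the causes were not tested. Of all calls, 83.2%, 85.7% and 84.6% were higher in Eng+Flk1+, Eng-Flk1+ and Eng+Flk1- cells as reported, 59.5%, 54.9% and 61.5% with the array median, 67.7%, 54.4% and 69.5% with quantile normalization and 73.1%, 71.3% and 71.7% with normexp. Counts over all genes ran from 0 to 2469, 0 to 1057 and 0 to 2832 there, from 0 to 42 and 0 to 206 in Eng+Flk1+ against Eng-Flk1+ and Eng+Flk1- cells, and from 0 to 310 for the interaction (537, 435, 331, 6, 67 and 62 as reported). Against Eng-Flk1- cells, the authors' table gave 382, 358 and 233 calls over all genes for Eng+Flk1+, Eng-Flk1+ and Eng+Flk1- cells. The array median gave 378, 359 and 234, and the 6 arrays compared gave 228, 238 and 128. Same-numbered arrays did not deviate together (r -0.0899 to 0.130 over 18 pairs). With the replicate block the counts of called proteasome genes were 2 for Eng+Flk1+, 3 for Eng-Flk1+ and 2 for Eng+Flk1- cells, where 406, 307 and 237 of all genes were called. No proteasome gene was called with that block in the other comparisons and the interaction. Where a fit left 1 array in a fraction, that array was taken to vary like the others.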
